A study of Mus musculus with 35 samples.

Results

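The 100 genes described here were those whose RNA stood furthest above every other sampled stage at E4.5, the stage at which the mouse blastocyst implants. They were taken from 54446 genes measured in 5 stages of the embryo, 1 day apart from E3.5 to E7.5. Of 50225 autosomal genes, 7409 reached a mean of 10 TPM or more at E4.5, and for each of these the highest mean log2(TPM + 1) of the other 4 stages was subtracted from the mean at E4.5. TPM is the abundance of a transcript corrected for its length and scaled to the same total in every library. This difference, called the E4.5 gap below, was positive for 1289 of the 7409 genes (17.4%), and the 100 largest gaps made the list. The in vivo libraries therefore chose the genes, and their values are given as a description with no test. The cultured cells took no part in the choice.

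The in vivo groups were the inner cell mass (ICM) of E3.5 blastocysts and the epiblast of E4.5 to E7.5 embryos, labelled as wild-type, untreated, of the CD-1 strain and of either sex. The methods of the study name CD1 and Pdgfra:H2B-GFP mice as the source of these embryos, and at E4.5 the reporter line was used, so that the wild-type label covers a transgenic reporter there. The in vitro groups were wild-type pluripotent lines: ESC-derived and embryo-derived 3D epiblast stem cells (3D EpiSCs), grown inside Matrigel with the growth factors FGF2 and Activin-A, the tankyrase inhibitor XAV939 and the BMP antagonist Noggin; 2D EpiSCs, converted from embryonic stem cells (ESCs) on a flat substrate with FGF2 and Activin-A alone; and epiblast-like cells (EpiLCs), ESCs after 48 h of FGF2 and Activin-A. Every group held 3 libraries, and nothing in the labels says that they came from separate cultures, so the p-values below measure the spread between these libraries, which may be technical. The embryo-derived lines began as E5.5 epiblasts, and every in vivo library pooled the cells of several embryos. For such lines the methods name LifeAct-GFP reporter and wild-type CD1 embryos, without saying which gave these libraries, and the ESCs are a separate line. Line and strain therefore cannot be told apart from origin or culture in comparisons with the embryo-derived cells.

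The isolation differed between stages. The E3.5 ICMs were cut out by laser. The E4.5 blastocysts were stripped of their trophectoderm by immunosurgery, in which antibody and complement lyse the outer cells, and the inner cells were then separated with trypsin. Cells without the green reporter of Pdgfra:H2B-GFP, which marks primitive endoderm, were picked by hand. From E5.5 onwards whole epiblasts were freed by hand in an enzyme-free buffer. RNA was fragmented at 85 °C for 6 min at E3.5 and E4.5 and at 94 °C for 4 min later. Stage and isolation cannot be told apart for any of the 100 genes, and neither can a change in cell composition and a change in RNA per cell, because these are bulk libraries. The in vivo libraries held total RNA and the in vitro libraries poly-A RNA, so that no test was made between them.

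The epiblast label of the E4.5 libraries was compared with marker genes. The pluripotency factors Pou5f1, Sox2, Nanog and Zfp42 had mean levels of 397, 33.6, 14.4 and 200.5 TPM at E4.5. All 9 core epiblast genes of a short list were at 10 TPM or more there. They summed to 1071 to 1104 TPM at E4.5, 1331 to 1383 TPM at E3.5 and 1266 to 1380 TPM at E5.5. The 17 naive pluripotency genes summed to 1524 to 1620 TPM at E4.5, 3531 to 3632 TPM at E3.5 and 134 to 137 TPM at E5.5. The 11 trophectoderm markers were also all at 10 TPM or more, among them Krt8 at 787, Krt18 at 1666, Gata3 at 87.8 and Cdx2 at 23.7 TPM. Their summed level lay between 3034 and 3203 TPM in the E4.5 libraries, between 3490.5 and 3553 TPM in the E3.5 ICM libraries and between 342 and 377 TPM at E5.5. The label therefore covers libraries in which RNA of trophectoderm markers was abundant. The 16 primitive endoderm markers summed to 840.1 to 898 TPM at E4.5, below the 2209 to 2332 TPM at E3.5. At E4.5, 11 of the 16 had a mean of 10 TPM or more and 0 a mean under 1 TPM. Unlike these 11, Gata6 and Pdgfra were lower, at 8.64 and 3.23 TPM, and the cells had been picked by a Pdgfra reporter. The 9 visceral endoderm markers summed to 129 to 145 TPM at E4.5 and to 831 to 887 TPM at E5.5. At E4.5, 2 of the 9 had a mean of 10 TPM or more and 4 a mean under 1 TPM, and Afp and Rbp4 were listed at 0 in all 3 libraries. The part of these other cell types in the levels of the 100 genes was not tested.

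**Figure D1:**
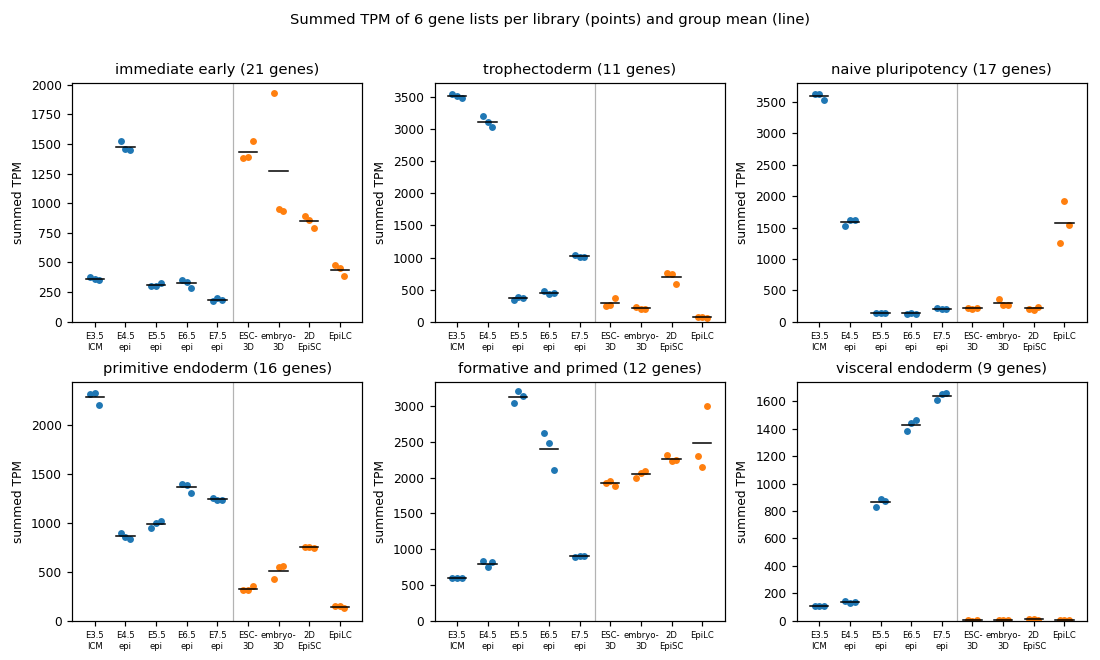
Summed TPM of the genes of 6 lists (y axis, linear, from 0) in each of 27 libraries (points) with the group mean (line), in vivo libraries in blue and in vitro libraries in orange, 3 libraries a group. The immediate early list stood at 1447 to 1522 TPM in the E4.5 libraries against at most 374 TPM in the other in vivo libraries, while the trophectoderm list was high at both E3.5 and E4.5.

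As background, immediate early genes are switched on within minutes of a stimulus from transcription factors already in the cell, and their products are short-lived. The best known are the FOS and JUN families, whose proteins pair through leucine zippers into the AP-1 transcription factor, and EGR1. They are followed by feedback inhibitors such as DUSP1, which inactivates MAP kinases, and SOCS3, which restrains cytokine receptors. Growth factors, adhesion to a new substrate, wounding and cell dissociation are all known stimuli. Around implantation the epiblast leaves the naive state, the trophectoderm attaches to the uterus, and the inner cells come into contact with a basement membrane.

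The 100 genes made up 0.577 to 0.584% of all TPM in the E4.5 libraries, compared with 0.113 to 0.114% at E3.5 and 0.0545 to 0.0712% from E5.5 to E7.5. All 3 E4.5 libraries lay above all 12 other in vivo libraries for 98 of them, where 8.03% of the 7409 genes had this pattern, and the rule all but fixed that count. The exceptions were Gm6061, a processed pseudogene, with 53.5, 68.7 and 1.43 TPM at E4.5 and up to 111 TPM elsewhere, and the microRNA gene Mir292, with 4.28, 3.55 and 22.5 TPM. The gap ran from 1.27 to 5.39 log2 units with a median of 1.96, a fold of 2.41 to 41.9 over the next highest stage. Mean levels at E4.5 ran from 10.0 to 399 TPM (median 32.9). The spread between the E4.5 libraries was the same as for other genes, with a median coefficient of variation of 10.9% both for the 100 genes and for the 7409.

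The stage with the second highest mean differed between the genes. It was E3.5 for 55 of the 100 genes, E5.5 for 10, E6.5 for 20 and E7.5 for 15. Among all 1289 genes with a positive gap, the second highest stage was E3.5 for 50.1%, E5.5 for 17.2%, E6.5 for 9.00% and E7.5 for 23.7%. At the lower end of the list, Twf2, an actin monomer-binding protein, ranked at 99 with a gap of 1.29 and Ier5, an early response gene, ranked at 100 with 1.27. Just outside were Ak1, an adenylate kinase, with 1.26 and Cyp51, an enzyme of cholesterol synthesis, with 1.25.

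**Figure D2:**
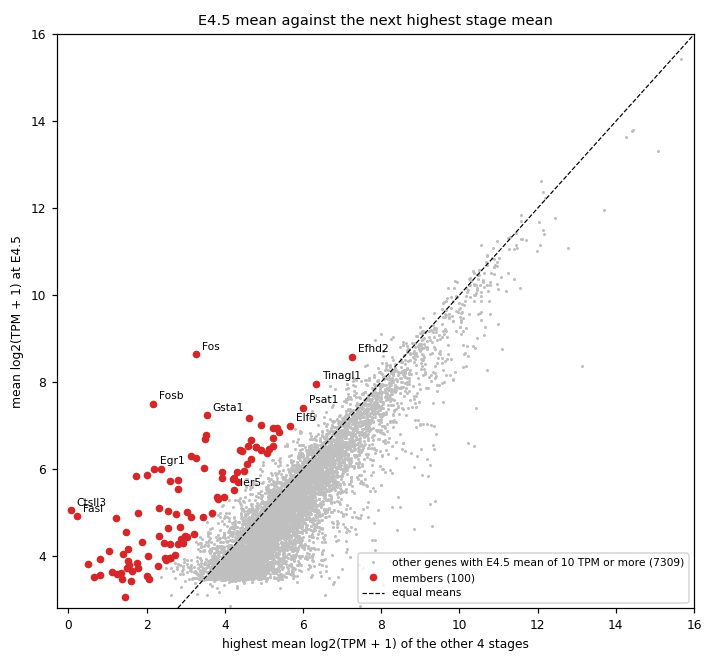
Mean log2(TPM + 1) at E4.5 (y axis) against the highest mean of the other 4 stages (x axis) for 7409 autosomal genes with a mean of 10 TPM or more at E4.5, the 100 chosen genes in red and equality as a dashed line. The chosen genes lie 1.27 to 5.39 units above the line, with Fos and Fosb farthest from it.

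Genes of the AP-1 family headed the list. Fos (ENSMUSG00000021250.13, chromosome 12, 85473890 to 85477273), the prototype partner of JUN proteins, read 389.6, 389 and 419 TPM in the 3 E4.5 libraries and between 0.695 and 9.90 TPM (median 4.64) in the 12 other in vivo libraries. Its E4.5 gap of 5.39 and its mean of 399 TPM were both the largest of the 100 genes. Fosb, a close relative of Fos, read 212, 173 and 160.2 TPM at E4.5 and between 0.0107 and 5.13 TPM (median 2.55) elsewhere. Fosl1, the third FOS protein of the list, read 17.1, 21.7 and 18.6 TPM at E4.5 and between 0 and 2.90 TPM (median 0.229) elsewhere. All 3 FOS genes were thus low at E3.5, at most 6.63 TPM, and at E7.5, at most 0.819 TPM. Jun, the main partner of FOS proteins, was expressed at every stage and read 84.3, 84.1 and 90.4 TPM at E4.5 and between 9.27 and 22.4 TPM (median 12.1) elsewhere. Junb, which also pairs with FOS proteins, read 59.9, 46.2 and 54.3 TPM at E4.5, above 19.2, 19.9 and 14.0 TPM at E3.5 and at most 12.3 TPM later. Atf3, a stress-responsive bZIP repressor, and Maff, a small MAF protein, completed the group with mean levels of 12.4 and 24.8 TPM at E4.5. The ratio of Fos to its next highest stage was therefore 41.9-fold, while that of Jun was 4.18-fold and that of Junb 2.93-fold.

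A list of 21 immediate early genes gave the wider view. Of these, 16 reached 10 TPM at E4.5, 15 of the 16 had their highest in vivo mean there, and 13 were among the 100 genes: Fos, Fosb, Fosl1, Jun, Junb, Atf3, Maff, Egr1, Dusp1, Zfp36, Klf6, Gadd45b and Ier5. Egr1, a zinc finger factor induced by growth factor signalling, read 59.3, 68.1 and 62.7 TPM at E4.5 and between 0.272 and 3.86 TPM (median 2.34) elsewhere. Klf6, a Krüppel-like factor, read 88.8, 88.4 and 84.7 TPM at E4.5 against 35.0, 32.7 and 34.1 TPM at E3.5. Ier5 read 46.0, 45.3 and 42.1 TPM at E4.5 but only 0.584, 1.15 and 0.715 TPM at E3.5. Plk3, a stress-responsive kinase, read 78.4, 79.1 and 74.5 TPM at E4.5 and between 2.19 and 8.33 TPM (median 3.47) elsewhere. Among the GADD45 growth arrest proteins, Gadd45g read 58.4, 71.5 and 61.7 TPM and Gadd45b 27.8, 22.8 and 14.0 TPM at E4.5, the third library of Gadd45b being the lowest. The early response genes thus shared a high E4.5 level and differed in their base level: Klf6 and Junb were above 10 TPM in the ICM, whereas Fos, Fosb, Egr1 and Ier5 were under 10 TPM.

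Feedback inhibitors of signalling formed a second set of 7 genes. Dusp1, a phosphatase of MAP kinases, read 101, 99.95 and 104 TPM at E4.5 and between 3.89 and 11.3 TPM (median 8.14) elsewhere. Nfkbia, the inhibitor that holds NF-kB in the cytoplasm and is itself induced by NF-kB, read 120.0, 108 and 98.02 TPM at E4.5 and between 2.66 and 11.8 TPM (median 5.32) elsewhere. Its relative Nfkbiz had a mean of 45.6 TPM at E4.5 and at most 8.38 TPM in any other in vivo library. These 3 genes were thus about as low at E3.5 as after implantation. Socs3, an inhibitor of JAK kinases induced by LIF, had a different course, with 24.5, 26.2 and 22.3 TPM at E3.5, 77.8, 70.6 and 72.3 TPM at E4.5 and at most 4.38 TPM later. Errfi1, an inhibitor of the EGF receptor, had a mean of 115 ± 2.38 TPM (SD, n = 3) at E4.5 against 41.0 ± 0.806 TPM at E3.5. Ppp1r15a, which recruits a phosphatase to the translation factor eIF2, and Zfp36, which destabilises AU-rich messages, had means of 101 and 28.8 TPM. Socs3, Errfi1, Ppp1r15a and Zfp36 all had E3.5 as their next highest stage, as did 55 of the 100 genes.

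Promoter sequence was available for 74 of the 100 genes from RefSeq (GRCm38.p6), as 250 bases before and 50 bases after each start site. The 250 bases upstream of Fos, Fosb and Dusp1 are printed because these genes were high at E4.5 together. In culture Fos and Fosb had the same calls, and those of Dusp1 differed from them. The bases upstream of Tex19.1 are printed because EpiLCs were the single culture in which it exceeded 2 TPM. Capitals mark exact matches, on either strand, to the AP-1 motif TGANTCA, the cyclic AMP response element (CRE) TGACGTCA, its half-site TGACG and the TATA box TATAAA. The half-site overlaps the full CRE. The RefSeq start sites of Fosb and Dusp1 lie 6 and 47 bases from the gene starts of the annotation behind the TPM values, and those of Fos and Tex19.1 coincide with them. Among the 74 genes some lie much farther off, such as Bnc2 at 65078, Atf3 at 34706 and Psat1 at 22278 bases. The shares given below include them. The regions were chr12:85473640-85473889 on the plus strand for Fos, chr7:19310046-19310295 on the minus strand for Fosb, chr17:26508473-26508722 on the minus strand for Dusp1 and chr11:121145893-121146142 on the plus strand for Tex19.1.
Fos: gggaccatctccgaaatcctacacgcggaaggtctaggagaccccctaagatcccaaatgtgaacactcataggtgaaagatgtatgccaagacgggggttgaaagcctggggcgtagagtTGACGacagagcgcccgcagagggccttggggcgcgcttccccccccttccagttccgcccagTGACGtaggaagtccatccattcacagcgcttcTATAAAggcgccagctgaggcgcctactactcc
Fosb: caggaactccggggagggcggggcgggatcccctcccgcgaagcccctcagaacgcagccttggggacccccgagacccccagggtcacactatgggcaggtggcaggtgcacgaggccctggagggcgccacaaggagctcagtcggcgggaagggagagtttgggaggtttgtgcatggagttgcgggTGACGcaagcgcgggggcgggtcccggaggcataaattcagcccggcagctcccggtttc
Dusp1: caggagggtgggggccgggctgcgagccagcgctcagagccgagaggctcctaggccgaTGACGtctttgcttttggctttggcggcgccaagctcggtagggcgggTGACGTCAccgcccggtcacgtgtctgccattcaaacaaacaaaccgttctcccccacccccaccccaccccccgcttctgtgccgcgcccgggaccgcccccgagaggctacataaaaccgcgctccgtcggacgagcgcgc
Tex19.1: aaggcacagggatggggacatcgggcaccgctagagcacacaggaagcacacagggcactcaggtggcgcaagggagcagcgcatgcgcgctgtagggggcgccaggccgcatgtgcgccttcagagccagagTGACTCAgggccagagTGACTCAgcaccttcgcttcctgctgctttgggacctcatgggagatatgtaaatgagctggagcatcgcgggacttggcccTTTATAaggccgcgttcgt

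The Fos sequence held half-sites at 129 to 125 and at 66 to 62 bases before the start site and a TATA box at 33 to 28. Fosb held a half-site at 60 to 56. Dusp1 held a full CRE at 143 to 136 and a half-site at 191 to 187. Tex19.1 held the AP-1 motif at 117 to 111 and at 101 to 95, and a TATA box on the reverse strand at 19 to 14. Over the full 300 bases, the AP-1 motif was found in 4 of the 74 promoters (5.41%), in 7.39% of all 19379 promoters and in 3.92% of the 5385 promoters of expressed genes, those with a mean of 10 TPM or more at E4.5. The CRE was found in 2 (2.703%, 2.30% of all and 3.90% of expressed) and the half-site in 14 (18.9%, 23.2% of all and 36.1% of expressed). The TATA box was found in 15 of the 74 promoters (20.3%), in 13.3% of all promoters and in 5.96% of the expressed genes' promoters. A CpG observed-over-expected ratio of 0.6 or more was found in 43 (58.1%), in 45.2% of all and in 83.9% of the expressed genes' promoters. The serum response CArG box was in 1 (1.35%, 1.41% of all and 1.30% of expressed), the NF-kB motif in 7 (9.46%, 8.94% of all and 9.935% of expressed), the STAT motif TTCNNNGAA in 5 (6.76%, 8.09% of all and 6.43% of expressed) and the GC box GGGCGG in 43 (58.1%, 43.5% of all and 69.6% of expressed). The share in the 74 promoters thus lay between those of all and of expressed genes for each of these features except the half-site, below both, and the TATA box, above both. These are matches of letters in a short window and describe neither binding nor regulation.

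Other lists held fewer of the 100 genes. Of 10 genes of the LIF and gp130 pathway, 8 reached 10 TPM at E4.5 and 4 had their highest mean there, Socs3, Pim1, Pim3 and Il6ra, of which Socs3 was among the 100. Of 11 heat shock genes 3 peaked at E4.5 and none was among the 100, and the summed heat shock level, 6731 to 7356 TPM at E4.5, lay inside the range of the other stages. The integrated stress response list contributed Ppp1r15a alone, and 2 of its 5 expressed genes peaked at E4.5. None of 8 expressed p53 target genes peaked at E4.5. Of the 9 core epiblast genes 3 had their highest mean at E4.5, of 14 expressed naive pluripotency genes 1, and of 9 expressed formative and primed genes 0, and none of these was among the 100. Of the expressed genes of the remaining lists, 12 of 15 for cholesterol synthesis, 2 of 2 metallothioneins, 2 of 2 for germline and 2-cell genes, 1 of 14 for autophagy and lysosome, 1 of 4 for interferon, 0 of 11 for primitive endoderm and 0 of 2 for visceral endoderm peaked at E4.5, and Tex19.1 was the single one among the 100. In all, 19 of the 100 genes were in at least 1 of 16 lists.

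The list also held secreted proteins and surface receptors, 11 and 10 genes. Tinagl1, a matrix protein of basement membranes, read 282, 242 and 221 TPM at E4.5 against 77.0, 73.5 and 86.9 TPM at E3.5. Cyr61, a matricellular ligand of integrins, read 121, 101.9 and 91.0 TPM at E4.5 against 38.1, 34.9 and 36.0 TPM at E3.5. Both were thus already expressed in the ICM. Fasl, the ligand of the death receptor FAS, was close to absent outside E4.5, with 31.9, 31.6 and 24.3 TPM there and at most 0.275 TPM in the other in vivo libraries. Nppb, a natriuretic peptide, read 44.4, 58.8 and 70.1 TPM and Bmp8b, a BMP ligand, 34.6, 29.7 and 28.4 TPM at E4.5, against at most 4.17 and 3.04 TPM elsewhere in vivo. Lgals3, a galectin, had a mean of 144 TPM at E4.5, 23.7 TPM at E3.5 and at most 3.00 TPM in later libraries.

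Among the receptors, Itga7, an integrin subunit that binds laminin, read 61.5, 49.7 and 58.2 TPM at E4.5 and between 0.229 and 2.78 TPM (median 1.20) elsewhere. Itgb3, the beta subunit of the vitronectin receptor, had a mean of 16.9 ± 0.164 TPM (SD, n = 3) at E4.5 and at most 2.35 TPM in the other in vivo libraries. Ptger3, a prostaglandin E2 receptor, had 16.5 ± 2.84 TPM at E4.5 and at most 1.26 TPM elsewhere. The EGF receptor Egfr was lower, at 10.0, 7.04 and 15.6 TPM, and under 1 TPM in all groups of other stages by mean. These 4 receptors were therefore scarce both before and after E4.5. Cmklr1 and Myadm, by contrast, had E3.5 means of 14.1 and 20.6 TPM and E4.5 means of 54.1 and 83.7 TPM.

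Enzymes and transporters included a block of glutathione S-transferases, which conjugate glutathione to reactive compounds. Gsta1 read 10.3, 11.1 and 10.4 TPM at E3.5 and 145, 152 and 152 TPM at E4.5 and was listed at 0 in every other library of the series. Gm3776 was likewise listed at 0 outside 8.79, 8.97 and 7.93 TPM at E3.5 and 74.9, 72.5 and 78.8 TPM at E4.5. Gsta2 read 3.38, 4.93 and 4.42 TPM at E3.5 and 57.9, 68.8 and 61.8 TPM at E4.5. The 3 genes lie within 100000 bases of each other on chromosome 9, 14445 bases separating Gsta1 from Gm3776 and 61852 bases Gm3776 from Gsta2, and they are near-identical in sequence, so that the division of reads among them is uncertain. They shared 1 course, present in the blastocyst and at most 0.321 TPM in any later or cultured library. Ctsll3, a cathepsin L-like protease, was close to limited to E4.5 in this series, at 32.9, 31.9 and 31.3 TPM at E4.5, 0.123, 0 and 0 TPM at E3.5 and 0 in all later and all cultured libraries. Psat1, an enzyme of serine synthesis, was expressed throughout and read 152, 178 and 177 TPM at E4.5 against 54.7, 59.4 and 46.6 TPM at E3.5. Slc7a8, an amino acid transporter, had 127 ± 6.63 TPM (SD, n = 3) at E4.5 and Hmox1, the haem oxygenase, 122 ± 6.16 TPM, each with E6.5 as its next stage.

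Of the 11 trophectoderm markers, 3 were among the 100 genes. Elf5, an ETS factor of the trophoblast lineage, read 124, 126 and 130.0 TPM at E4.5 and 48.1, 47.3 and 53.7 TPM at E3.5. Tfap2c, an AP-2 factor of trophoblast and germ cells, read 122, 125 and 121 TPM at E4.5 and 37.6, 37.9 and 43.8 TPM at E3.5. Krt7, a keratin of simple epithelia, read 57.3, 48.4 and 53.4 TPM at E4.5 and 6.52, 5.18 and 6.32 TPM at E3.5. In all 3 the E4.5 libraries stood apart from every other stage, although the summed trophectoderm list was higher at E3.5.

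Further regulators peaked at E4.5 without belonging to these sets. Aire, the transcriptional regulator best known from thymic epithelium, read 28.4, 27.1 and 29.2 TPM at E4.5 and between 0 and 1.72 TPM (median 0.502) elsewhere. Bnc2, a zinc finger protein, read 23.7, 27.3 and 17.8 TPM at E4.5 and between 0.165 and 1.87 TPM (median 0.681) elsewhere. Tex19.1, which restrains retrotransposons in the germ line and in hypomethylated cells, read 89.9, 96.9 and 83.2 TPM at E4.5, 25.3, 27.3 and 28.2 TPM at E3.5 and 2.21, 0.799 and 1.26 TPM at E7.5. Of the cytoskeletal and scaffold genes, Efhd2, a calcium-binding actin regulator, had the second highest E4.5 mean of the list, 381 TPM, and was already at 151 TPM in the ICM. S100a6, a calcium-binding protein, had 52.4, 48.4 and 54.7 TPM, Exoc3l, an exocyst-related protein, 30.1, 28.1 and 42.9 TPM and Snap91, a clathrin assembly protein, 14.3 ± 1.04 TPM (SD, n = 3) at E4.5. The septin gene Sept1 read 106, 98.1 and 71.7 TPM at E4.5 and 23.1, 19.3 and 27.5 TPM at E3.5.

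**Figure D3:**
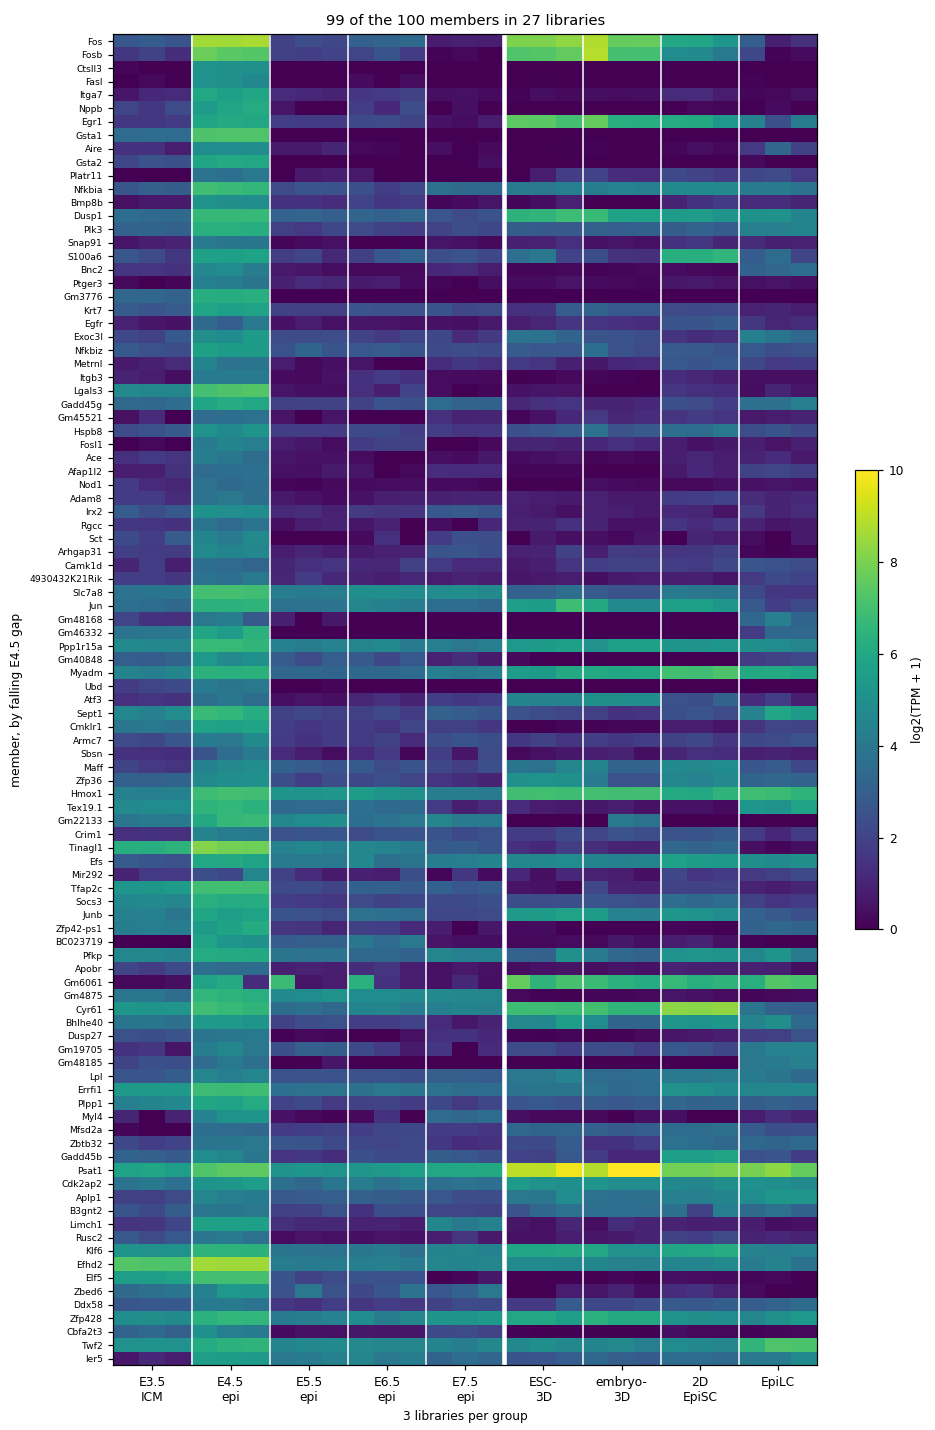
Level of 99 of the 100 genes (rows, ordered by falling E4.5 gap) in each of 27 libraries (columns, 3 a group, the wide white line parting in vivo from in vitro libraries), as log2(TPM + 1) in colour. The E4.5 columns are the brightest in vivo for 97 of the 99 rows, and 14 rows are dark in all 12 in vitro libraries.

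Whether these genes were expressed in cultured pluripotent cells was asked next, in libraries that the choice had not used. The rule required lower means at the other 4 stages, so a low share in culture beside the 7409 genes may in part reflect the choice. All 12 in vitro libraries stayed below 1 TPM for 14 of the 100 genes (14.0%), compared with 136 of the 7409 genes (1.84%). These were Ctsll3, Gsta1, Gsta2, Gm3776, Elf5, Fasl, Nppb, Ptger3, Apobr, Cbfa2t3, Nod1, Ubd, Gm4875 and BC023719. At the other end, 14 genes reached 10 TPM in all 12 in vitro libraries, a share of 14.0% where it was 81.3% of the 7409 genes. Psat1 was the highest of these with an in vitro mean of 489 TPM, followed by Gm6061, Hmox1, Myadm, Dusp1, Twf2, Zfp428, Klf6, Ppp1r15a and Cdk2ap2, at 111 to 30.2 TPM. By group means, 35 genes reached 10 TPM in 2D EpiSCs, 29 in EpiLCs, 28 in ESC-derived 3D EpiSCs and 27 in those from embryos, and 44 did so in at least 1 culture. Of the 7409 genes, 89.6, 88.2, 87.1 and 87.9% did so in these cultures, in the same order, and 92.4% in at least 1. In vivo, a mean of 10 TPM or more was reached by 33 of the 100 genes at E3.5, 20 at E5.5, 21 at E6.5 and 19 at E7.5. Of the 7409 genes, 92.5% reached it at E3.5, 88.6% at E5.5, 87.8% at E6.5 and 90.8% at E7.5. The culture counts of the 100 genes thus all lay above those after E4.5, and only that of 2D EpiSCs lay above the E3.5 count. The in vitro and in vivo libraries were made from different RNA fractions with different kits, which cannot be told apart from culture itself here.

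The share of TPM in the 100 genes was 0.223 to 0.288% in ESC-derived 3D EpiSCs, 0.232 to 0.282% in those from embryos, 0.185 to 0.194% in 2D EpiSCs and 0.129 to 0.157% in EpiLCs. No in vitro library reached the E4.5 share, and all of them lay above every in vivo library of the other stages. Of the 86 genes with 1 TPM or more in some in vitro library, 36 (41.9%) had their highest group mean in 2D EpiSCs and 29 (33.7%) in EpiLCs, with 11 (12.8%) in ESC-derived and 10 (11.6%) in embryo-derived 3D EpiSCs. For the 7273 genes of the same kind among the 7409 the shares were 30.8, 29.8, 14.4 and 25.0%.

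The cultures were compared with limma on log2(TPM + 1), in 1 fit of 12 libraries over 11541 autosomal protein-coding genes with more than 2 TPM in at least 3 in vitro libraries. This filter kept 60 of the 100 genes. Calls required both a log2 difference beyond 1 in either direction and an adjusted p (Benjamini-Hochberg, over the 11541 genes) below 0.05, and ± stands for the standard error of a log2 difference. The 3 comparisons with 2D EpiSCs share those 3 libraries and are set side by side rather than tested against each other. The 3D cultures differed from 2D EpiSCs in dimension, inhibitors, base medium and Activin-A dose at once, and these cannot be told apart. The part of cell harvest in the calls was not tested. The EpiLC libraries alone let 6 genes pass the filter, Aire, Bnc2, Afap1l2, 4930432K21Rik, Tex19.1 and Dusp27, and the 2D EpiSC libraries alone let 2 pass, Adam8 and Rusc2, so that their place in the tests was not independent of being high in that culture. The other 52 genes exceeded 2 TPM in libraries of at least 2 cultures, and fits restricted to the 11119 genes of that kind, a setting chosen after seeing the data, are given beside the fit with all 60. In 3 of the 4 cultures, a pair of libraries differed by a median of less than 0.1 log2 units and may be technical repeats. With such pairs averaged, 11 and 24 genes were called higher and lower in EpiLCs, 6 and 12 in ESC-derived and 6 and 14 in embryo-derived 3D EpiSCs, each against 2D EpiSCs. Rescaling the libraries to a common median ratio moved the median log2 difference of all genes from -0.18 to 0.05 between EpiLCs and 2D EpiSCs, from -0.21 to 0.02 for ESC-derived and from -0.08 to 0.03 for embryo-derived 3D EpiSCs against 2D EpiSCs, and from -0.12 to 0.01 between the 3D cultures.

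In EpiLCs, cells at the formative stage between ESCs and EpiSCs, 5 of the 52 genes that exceeded 2 TPM in at least 2 cultures were called higher than in 2D EpiSCs, where 3.15% of such genes were, and 23 were called lower, where 14.8% were. Their median log2 difference was -0.69, against -0.19 for the 11119 genes. Over all 60 genes the calls were 11 higher, where 5.14% of all tested genes were, and 23 lower, where 15.2% were, and 6 of these 11 were the genes that had passed the filter through EpiLCs alone. All 6 tested AP-1 and bZIP genes were called lower in EpiLCs. Of 20 tested immediate early genes 13 were called lower and 0 higher by limma, with 14 lower and 2 higher at an unadjusted p below 0.05. Of 7 other early response regulators among the 100 genes, 3 were called lower and 2 higher. The 5 higher calls were Sept1, Exoc3l, Twf2, Gadd45g and Plk3.

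Fos read 7.18, 0.84 and 1.59 TPM in EpiLCs and 64.9, 58.6 and 37.4 TPM in 2D EpiSCs, without overlap (log2 difference -3.97 ± 0.48, adjusted p = 2.83e-05). Fosb read 3.44, 0.0743 and 0.236 TPM in EpiLCs and 28.2, 26.9 and 15.49 TPM in 2D EpiSCs (-3.72 ± 0.56, adjusted p = 0.00016). In both genes the first EpiLC library was the highest of its group. Jun read 6.01, 2.66 and 3.73 TPM in EpiLCs against 50.01, 49.5 and 36.8 TPM in 2D EpiSCs (-3.22 ± 0.41, adjusted p = 4.79e-05). Junb, Maff, Egr1, Klf6, Atf3 and Zfp36 were also called lower in EpiLCs, by log2 differences of -2.30, -2.22, -2.16, -1.61, -1.40 and -1.35. Dusp1, with 33.0, 33.9 and 21.6 TPM in EpiLCs and 45.4, 43.4 and 35.2 TPM in 2D EpiSCs, differed by -0.49 ± 0.26 and was not called. The feedback inhibitors Nfkbia (-0.72), Nfkbiz (-0.19), Ppp1r15a (-0.40) and Errfi1 (-0.33) were not called either, whereas Socs3 was (-1.74).

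Large differences among the lower genes were also found outside the AP-1 family. Cyr61 read 13.5, 7.47 and 6.86 TPM in EpiLCs and 309, 299 and 322 TPM in 2D EpiSCs, and all 3 EpiLC libraries lay far below (-4.98 ± 0.20, adjusted p = 4.77e-09). S100a6 read 6.45, 10.7 and 3.23 TPM in EpiLCs and 75.2, 76.9 and 95.3 TPM in 2D EpiSCs (-3.53 ± 0.49, adjusted p = 8.44e-05). Gadd45b read 4.55, 5.29 and 2.45 TPM in EpiLCs and 47.5, 46.6 and 55.5 TPM in 2D EpiSCs (-3.36 ± 0.27, adjusted p = 1.03e-06). Neither pair of groups overlapped. Tinagl1 was under 1 TPM in all 3 EpiLC libraries, at 0.318, 0.129 and 0.295 TPM, against 9.12, 8.08 and 9.15 TPM in 2D EpiSCs, a log2 difference of -2.97. The trophectoderm markers Krt7 and Tfap2c were called lower too, by -1.39 and -1.05, together with the other 4 tested genes of their list. The summed trophectoderm list was 59.1 to 70.8 TPM in EpiLCs and 594 to 758 TPM in 2D EpiSCs. By mean, 3 of its 11 genes were at 10 TPM or more in both cultures. Under 1 TPM were 8 genes in EpiLCs and 5 in 2D EpiSCs, the latter being Cdx2, Elf5, Gata2, Hand1 and Tfap2a. The part of differentiated cells in the 2D EpiSC levels of the genes called lower was not tested.

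Sept1 had the largest difference of these, with 20.8, 60.2 and 42.9 TPM in EpiLCs and 4.38, 5.29 and 3.92 TPM in 2D EpiSCs (2.82 ± 0.30, adjusted p = 1.08e-05). Twf2 read 91.1, 150.4 and 143 TPM in EpiLCs and 26.999, 24.4 and 22.7 TPM in 2D EpiSCs (2.30 ± 0.18, adjusted p = 1.19e-06). In both genes the EpiLC libraries lay above all 2D EpiSC libraries. Gadd45g and Plk3, which like Fos were early response genes at E4.5, were called higher in EpiLCs by 1.69 and 1.38, opposite to Gadd45b. Tex19.1 and Bnc2 had passed the filter through EpiLCs alone and are given as levels without a test. Tex19.1 read 37.3, 34.2 and 54.9 TPM in EpiLCs and 0.401, 0.403 and 0.238 TPM in 2D EpiSCs, and its 3D EpiSC libraries read at most 1.33 TPM. Bnc2 read 7.52, 8.94 and 10.8 TPM in EpiLCs and 0.266, 0.17 and 0.095 TPM in 2D EpiSCs. Sept1, Twf2, Tex19.1 and Bnc2 all had E3.5 as their second highest stage in vivo.

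Of the 12 genes of the list that do not code for protein, 9 passed the filter when non-coding genes were tested as well. In that fit 6 of the 9 were called higher in EpiLCs, where 5.59% of 13378 autosomal genes were, but 5 of the 6 had passed through EpiLCs alone, Gm48185, Gm48168, Zfp42-ps1, Gm46332 and Gm40848, and their calls are not counted as results. The remaining gene, Gm19705, differed by 1.84 on the log2 scale. Gm48185 read 10.4, 15.7 and 12.1 TPM at E4.5, 3.12, 4.38 and 4.27 TPM at E3.5 and 14.4, 16.6 and 19.5 TPM in EpiLCs, and was listed at 0 in all 9 other in vitro libraries. Gm48168 read 14.98, 17.2 and 5.94 TPM at E4.5 and 9.08, 19.4 and 8.27 TPM in EpiLCs and was likewise listed at 0 in the other cultures. Zfp42-ps1, a pseudogene of the naive marker Zfp42, read 42.3, 54.0 and 69.8 TPM at E4.5 and 7.72, 8.99 and 8.42 TPM in EpiLCs.

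In ESC-derived 3D EpiSCs, 7 of the 60 genes were called higher than in 2D EpiSCs, where 0.633% of all tested genes were, and 15 were called lower, where 9.25% of all were. Among the 52 genes that exceeded 2 TPM in at least 2 cultures, the counts were 7, where 0.648% of such genes were called, and 13, where 8.60% were. After rescaling to a common median ratio the split was 8 higher and 10 lower, with 1.32% and 5.82% of all genes called. The higher genes were Fosb, Fos, Exoc3l, Atf3, Egr1, Psat1 and Dusp1, 5 of them immediate early genes. The median log2 difference of the 60 was -0.33, against -0.21 for all tested genes. Gadd45b, S100a6, Tinagl1, Tfap2c and Egfr had the largest differences among the lower genes.

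Fos read 267, 270.0 and 319 TPM in ESC-derived 3D EpiSCs, every library above 64.9, 58.6 and 37.4 TPM in 2D EpiSCs (2.42 ± 0.48, adjusted p = 0.00228). Fosb read 151, 160.3 and 193 TPM against 28.2, 26.9 and 15.49 TPM (2.83 ± 0.56, adjusted p = 0.00237). Atf3 read 21.2, 20.5 and 21.04 TPM against 4.80, 4.31 and 8.04 TPM (1.75 ± 0.23, adjusted p = 0.000207). The 3D libraries of these genes were thus within a narrow range and clear of the 2D libraries. Egr1 read 176, 172 and 129 TPM against 69.5, 66.8 and 39.1 TPM (1.46 ± 0.49, adjusted p = 0.0317), a call that was lost under 12 of 21 alternatives, with adjusted p up to 0.145. Jun and Junb were not called, at 0.47 and 0.45, and in Jun the third 3D library, 118 TPM, stood above the first and second at 46.6 and 44.6 TPM. Dusp1 was called higher by 1.23, from 45.4, 43.4 and 35.2 TPM in 2D EpiSCs to 86.3, 91.5 and 118 TPM.

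Gadd45b read 3.07, 2.93 and 5.96 TPM in ESC-derived 3D EpiSCs against 47.5, 46.6 and 55.5 TPM in 2D EpiSCs (-3.40 ± 0.27, adjusted p = 6.77e-06). S100a6 read 11.7, 14.9 and 3.09 TPM against 75.2, 76.9 and 95.3 TPM (-3.15 ± 0.49, adjusted p = 0.000545). Cyr61 read 117, 117 and 112 TPM against 309, 299 and 322 TPM (-1.42 ± 0.20, adjusted p = 0.000302). All 3 genes were lower in every 3D library than in any 2D library. The trophectoderm list, of which 4 of 6 tested genes were called lower, summed to 249.7 to 370.3 TPM in ESC-derived 3D EpiSCs. By mean, 2 of its 11 genes were at 10 TPM or more there and 7 under 1 TPM. The part of this list in these differences was not tested.

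In embryo-derived 3D EpiSCs, 6 of the 60 genes were called higher than in 2D EpiSCs, where 1.07% of all tested genes were, and 18 were called lower, where 7.75% of all were. Among the 52 genes that exceeded 2 TPM in at least 2 cultures, the counts were 6, where 1.08% of such genes were called, and 16, where 7.02% were. The higher genes were Fosb (3.08), Fos (2.31), Atf3 (2.24), Psat1 (1.66), Zfp428 (1.19) and Exoc3l (1.09). Fos read 453, 199 and 201 TPM in these libraries and Fosb 476, 131 and 129 TPM, the first library being far above the other two. The summed immediate early list was 1929 TPM in that library and 931 to 950.3 TPM in the others. Even the lowest library of each gene was above all 3 of 2D EpiSCs. Leaving out that first library left the number of higher calls at 6. Psat1 read 459.5, 1002 and 999.9 TPM against 234, 236 and 261 TPM (1.66 ± 0.30, adjusted p = 0.00148). The median log2 difference of the 60 genes was -0.51, against -0.08 for all tested genes.

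Among the lower genes, S100a6 read 4.32, 1.75 and 1.52 TPM (-4.64 ± 0.49, adjusted p = 3.56e-05) and Gadd45b 2.29, 1.15 and 1.19 TPM (-4.35 ± 0.27, adjusted p = 6.36e-07). Tinagl1 was called lower by -2.21, Zbtb32, a zinc finger repressor, by -1.98 and Metrnl, a secreted factor, by -1.69. Bhlhe40, Maff and Zfp36 were called lower in this culture by -1.47, -1.19 and -1.52. Of 20 tested immediate early genes, 3 were called higher here and 7 lower, compared with 5 and 3 in the ESC-derived cells. In both 3D cultures the list was therefore called in both directions, with Fos, Fosb and Atf3 on the higher side and Gadd45b, Btg2 and Ier3 on the lower.

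**Figure D4:**
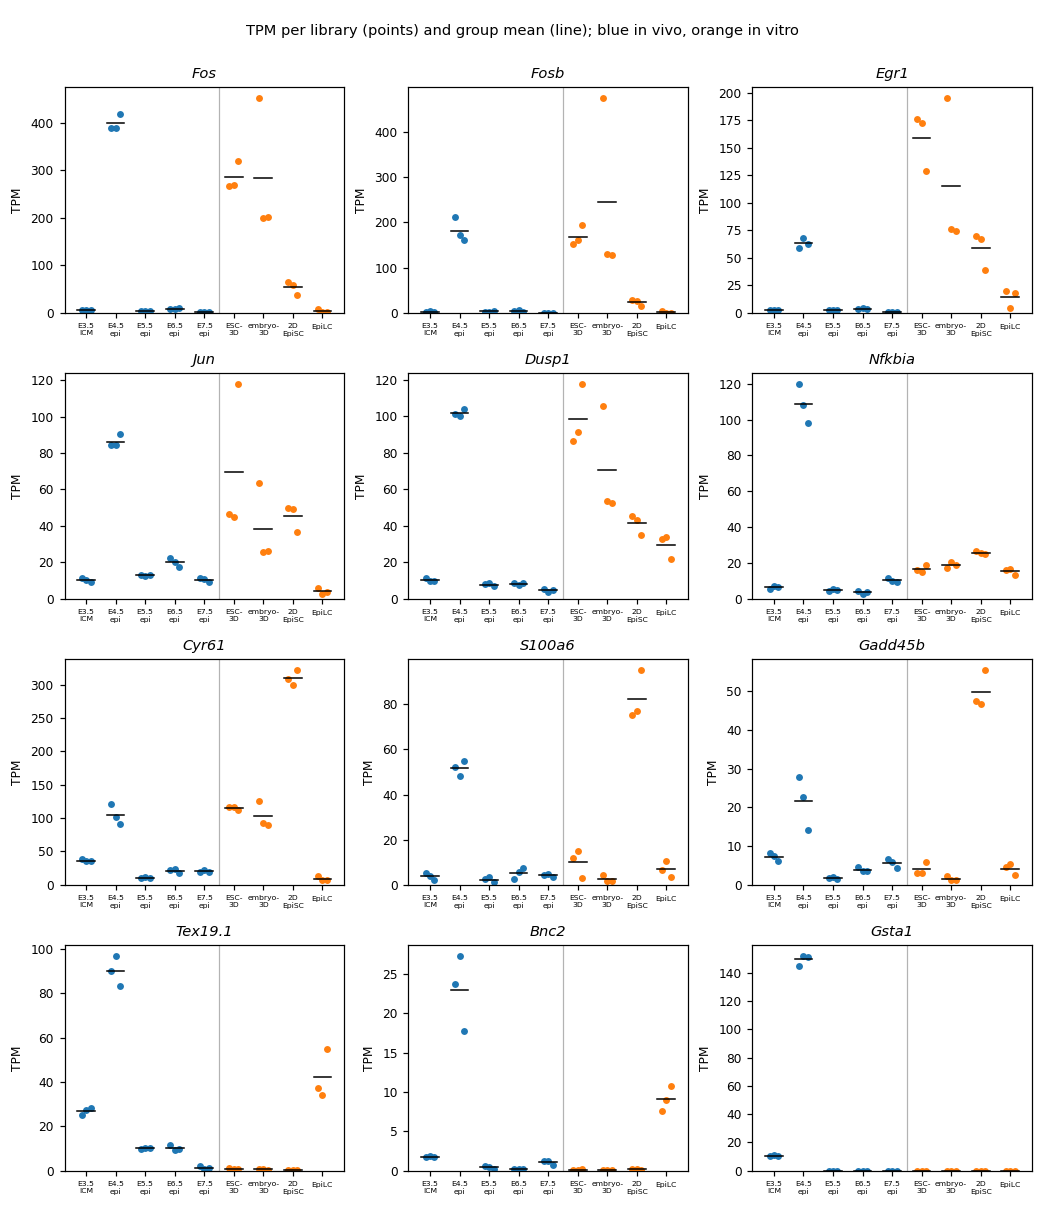
TPM (y axis, linear, from 0) of 12 of the 100 genes in each of 27 libraries (points) with the group mean (line), in vivo in blue and in vitro in orange. Fos, Fosb and Egr1 are high at E4.5 and again in 3D EpiSCs with 1 embryo-derived library above the rest. Egr1 also has a mean of 58.5 TPM in 2D EpiSCs, near its E4.5 level, and was not called between embryo-derived 3D and 2D EpiSCs. Tex19.1 and Bnc2 are high at E4.5 and in EpiLCs, and Gsta1 is listed at 0 in all cultures.

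Set side by side, the comparisons with 2D EpiSCs gave a shared layout to some of the genes. Fos, Fosb and Atf3 were called higher in both 3D cultures and lower in EpiLCs. They were the only 3 of the 11541 tested genes with these calls (0.0260%), so that this share is no separate background. The combination was picked after the calls were seen. Exoc3l was called higher in all 3 other cultures, with 1.92, 1.46 and 1.67 TPM in 2D EpiSCs, 12.8, 12.7 and 8.43 TPM in ESC-derived 3D EpiSCs, 5.13, 4.70 and 4.31 TPM in embryo-derived 3D EpiSCs and 18.9, 13.7 and 9.34 TPM in EpiLCs. Cyr61, Egfr, Gadd45b, S100a6, Socs3 and Tinagl1 were called lower in all 3 comparisons, where 3.15% of all tested genes were. The 3 comparisons share the 2D libraries. Socs3 read 10.9, 9.04 and 10.9 TPM in 2D EpiSCs, above every library of the other cultures, whose highest value was 5.16 TPM. In both 3D cultures its log2 difference lay only just beyond the limit for a call. Rescaling kept 10 of the 15 lower calls in ESC-derived and 16 of the 18 in embryo-derived 3D EpiSCs. Whether the Socs3 calls were among those kept, or held under the other alternatives, was not followed. No call was made in any comparison for 15 of the 60 genes, where 73.3% of all tested genes had none, among them Nfkbia, Nfkbiz, Ppp1r15a, Ier5, Hmox1 and Efhd2.

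Between the 3D cultures, 2 of the 60 genes were called higher in the ESC-derived cells, where 1.98% of all tested genes were, and 0 were called lower by limma, where 1.98% were. At an unadjusted p below 0.05, 15 genes (25.0%) were higher and 4 (6.67%) lower, where 10.8% and 26.7% of all tested genes were, and the median log2 difference was 0.14 for the 60 and -0.12 for all. Among the 52 genes that exceeded 2 TPM in at least 2 cultures, 3 were called higher, where 1.99% of such genes were, and 0 lower, where 2.02% were. Zfp36 read 31.6, 33.4 and 31.8 TPM in ESC-derived and 16.4, 4.70 and 4.86 TPM in embryo-derived 3D EpiSCs, the first embryo-derived library being the nearest (2.00 ± 0.32, adjusted p = 0.00201). Exoc3l differed by 1.09 ± 0.21, adjusted p = 0.00572. Both calls were lost when near-identical libraries were averaged, Zfp36 at an adjusted p = 0.0540, when 1 other gene was called. Without the first embryo-derived library 7 genes were called higher and without the second ESC-derived library 4, so that this count rested on single libraries. Fos and Fosb differed by 0.11 ± 0.48 and -0.26 ± 0.56 and were not called.

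**Figure D5:**
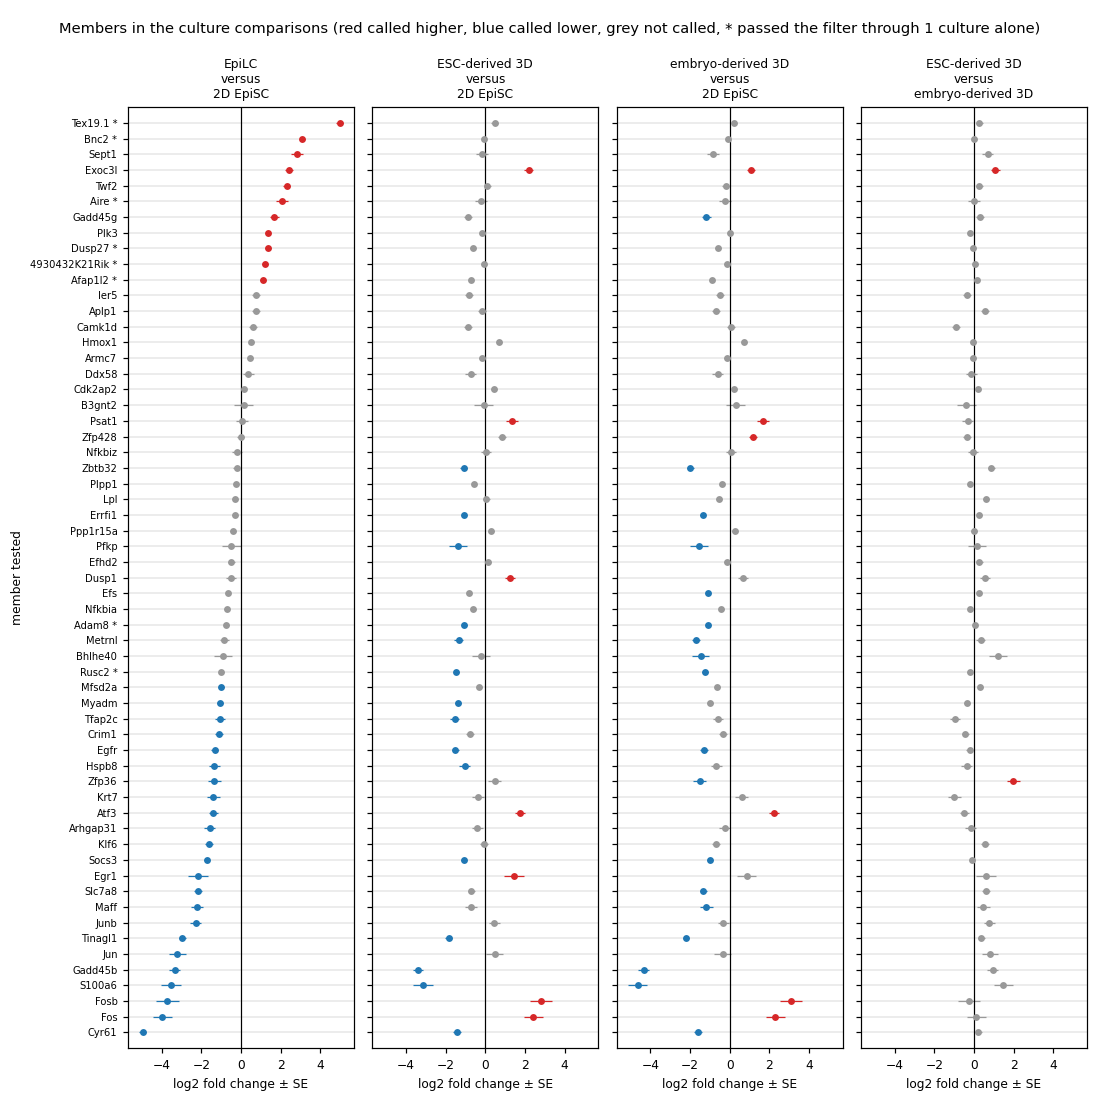
Log2 difference with its standard error (x axis) for 59 of the 60 tested genes (y axis, ordered by the EpiLC comparison) in 4 culture comparisons, red called higher, blue called lower and grey not called, with an asterisk for the 8 genes that passed the filter through 1 culture alone. In the EpiLC comparison 11 genes are red and 23 blue, in the ESC-derived 3D comparison 7 and 15, in the embryo-derived 3D comparison 6 and 18, and between the 3D cultures 2 and 0.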

How the data were processed

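RNA-seq of 15 in vivo and 12 in vitro libraries was used. The TPM values were computed by the authors, with cutadapt 2.4 for trimming, STAR for alignment (build mm10) and StringTie for quantification against GENCODE, and were deposited as 1 table for all libraries, so that read depth is unknown and no counting interval is given. In vivo libraries held ribosome-depleted total RNA after 13 PCR cycles, and in vitro libraries poly-A RNA after 8. Between 20324 and 26751 genes were above 0 in an in vivo library and between 22215 and 24438 in an in vitro library. Here, lines of 1 identifier were summed (12 identifiers), and empty cells (56 lines) were set to 0. Comparisons between cultures used limma 3.58.1 (R 4.3.3) on log2(TPM + 1), without a trend or a block. Because TPM are not counts, no count model was fitted. Fold changes on this scale understate those of low genes. The script was tested on simulated data. Near-identical replicate pairs, with a median absolute log2 difference under 0.1, were found in 3 groups (ESC-derived 3D EpiSC 0.0610, embryo-derived 3D EpiSC 0.0569, 2D EpiSC 0.0649) and averaged as an alternative. Alternatives varied the pseudocount, the filters, the genes tested, the scaling, the model and the replicates. The values of 1 of the 100 genes are not reported here, although counts over the genes include it. The 100 genes and the gene lists were chosen with earlier results of these data known. The text names the 20 largest gaps, members of lists, the 5 largest calls per direction in each comparison, ranks 99 to 102, the 5 highest E4.5 means and up to 10 genes high in all cultures; other named genes, the functional groups and the promoters printed were chosen after their values were seen.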

Additional observations from a re-analysis of the deposited data

How the results depend on the processing

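The list itself kept 97 of 100 genes with a pseudocount of 0.1, 95 after rescaling, 90 when the lowest E4.5 library was set against the highest other library, 88 among protein-coding genes, 71 and 67 with minimum means of 2 and 20 TPM, and 90 to 100 when each in vivo library was left out. Genes under 1 TPM in all cultures numbered 14, 11 at a limit of 0.5 TPM and 15 after rescaling.

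For EpiLC versus 2D EpiSC, higher calls went from 11 to 17 over all autosomal genes, which added 6 non-coding genes, and to 5 to 11 when each library was left out: without any 1 EpiLC library 6 genes no longer passed the filter. In settings chosen after seeing the data the count was 10 to 11 with the tested genes held fixed and 5 with only genes that exceeded 2 TPM in at least 2 cultures. Lower calls were 21 to 24 in these fits. They were 19 after rescaling, where 11.1% of all genes were called lower, and 26 with a pseudocount of 0.1, where 17.8% were. Between ESC-derived and embryo-derived 3D EpiSC, higher calls went from 2 to 5 with a pseudocount of 0.1, 5 after rescaling and 1 with near-identical replicates averaged, and 2 to 7 with each library left out, with or without fixed genes. Lower calls there went from 0 to 2 with a pseudocount of 0.1 and 0 to 2 with a library left out. The cause was not tested. With 2D EpiSC as reference, leaving out each library gave 6 to 7 higher and 12 to 17 lower calls for ESC-derived and 6 higher and 12 to 21 lower for embryo-derived 3D EpiSC. In the same order, lower calls were 10 and 16 after rescaling, where 5.82% and 6.20% of all genes were called lower. With a pseudocount of 0.1 they were 20 and 22, where 12.2% and 10.3% were.

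With the replicate number as a replicate block the calls were 11 and 23, 7 and 15, 6 and 18, and 3 and 0. The numbers did not pair the libraries: deviations from group means correlated at -0.030 on average for the same number (18 pairs, -0.146 to 0.160) and 0.012 for other numbers (36 pairs).

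Only the calls with the largest log2 differences per direction in each comparison were followed through the alternatives, a choice that favours stable calls. Of 30 such calls of genes that exceeded 2 TPM in at least 2 cultures, 27 were made under all alternatives run and 0 reversed. The other calls named in the text, among them those of Socs3, Klf6, Junb, Krt7 and Plk3, were not followed in this way. Egr1 higher in ESC-derived 3D EpiSC was lost under 12 of 21, Zfp36 between the 3D cultures was lost with near-identical replicates averaged (adjusted p = 0.0540) and Exoc3l there under 3. Read depth, which limits low values, is unknown for TPM.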

Other observations

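Outside the list, genes of cholesterol synthesis also had their highest in vivo mean at E4.5, in 12 of 15 expressed genes of a list of 16, and none was among the 100. Their summed level was 784 to 807 TPM at E4.5, 419 to 430.4 TPM at E3.5, 627 to 689 TPM at E5.5 and 2217 to 4240.2 TPM in the cultures, which were made from another RNA fraction. Cyp51 missed the list by 2 ranks.

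Myl4, a myosin light chain, and Itgb3 lay 12247 bases apart on chromosome 11. Their E4.5 levels were 20.4, 33.2 and 34.7 and 17.0, 16.8 and 16.7 TPM. Chromosome 7 held 14 of the 100 genes (7.59% of the 7409 genes lie there), chromosome 4 held 11 (7.03%), chromosome 11 held 9 (8.77%) and chromosome 13 held 8 (4.41%).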
